A study of Mus musculus with 12 samples.

Results

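The genes of motile cilia were taken by symbol from mouse brain RNA: every symbol starting Dnah, Dnai, Rsph, Tekt or Cfap that goes on with a number (or, for Dnai, with c), together with Foxj1, Mcidas, Ccno, Rfx2, Rfx3, Ccdc39, Ccdc40, Ak7, Spag17, Tmem212 and Pifo. The rule found 53 of the 24421 gene symbols counted. Of these, 48 had enough reads to be among the 16364 genes tested, and Mcidas, Cfap221, Rsph14, Rsph6a and Tekt3 did not. The rule used no measured value, but it was chosen with earlier results of these data known.

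The libraries are 12 samples of total RNA in 4 groups of 3. In the naive group the RNA came from normal cortex of mice that received no injection. The other groups are whole, snap-frozen tumours that arose after RCAS viruses were injected into the brain. RCAS is an avian retrovirus vector that enters mouse cells only where these carry its receptor. The virus carried YAP1-TFE3, YAP1-FAM118B or, as the third fusion, YAP1-MAMLD1-dR3R1, genes that join the transcriptional coactivator YAP1 to part of another protein. The labels and notes do not state mouse strain, age, the cells that carried the receptor, or any injected control. They also do not say that the samples of a group came from separate mice, so the p-values measure the spread between these samples. The labels disagree in places: for naive samples the field for tissue gives brain tumour, and the extraction text describes cultured cells. The study's title sets out to compare YAP1 fusions of tumours, and each comparison below asks how cilium genes differ between a tumour and cortex or between 2 tumours.

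Motile cilia beat because dynein arms slide the microtubule doublets of their core, the axoneme. Radial spokes and a central pair of microtubules control that sliding, and tektins run inside the doublets. In brain they cover ependymal cells, which line the ventricles, and the epithelium of the choroid plexus carries them too. Cells that grow many cilia first use Mcidas and Ccno to multiply centrioles, and Foxj1, a forkhead factor, then switches on axonemal genes together with the RFX factors, which bind the X-box.

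In YAP1-TFE3 tumours Foxj1 RNA was 16.4-fold that of naive cortex and Rfx2 was 3.91-fold, while Rfx3 and most of the axonemal genes that were called were lower. In YAP1-MAMLD1-dR3R1 tumours Foxj1 was 3.42-fold, with a call that depended on single libraries, and Rfx2 2.51-fold. In YAP1-FAM118B tumours no cilium gene was called higher. Expression is given as CPM (each gene's reads relative to library size, adjusted with TMM factors), and folds are ratios of mean CPM. A gene is called when the adjusted p of edgeR's quasi-likelihood test (Benjamini-Hochberg over all genes tested) is below 0.05, and log2 fold changes are given with their standard error (SE). All 3 comparisons with cortex use the same naive libraries.

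Libraries held 19850220 to 24760814 counts, so that 3 counts correspond to 0.117 to 0.145 CPM, and the cilium genes took 0.0244 to 0.0560% of them. Markers of neighbouring cell types differed between libraries. Ttr, the most abundant transcript of choroid plexus, stood at 2.34, 67.5 and 1589 CPM in the naive libraries, 2156, 1.02 and 8.87 in YAP1-MAMLD1-dR3R1, 53.4, 96.9 and 83.8 in YAP1-FAM118B, and 947, 215 and 2.83 in YAP1-TFE3. The summed level of 18 choroid plexus genes ran from 414 to 2900 CPM in naive, 1135 to 4201 in YAP1-MAMLD1-dR3R1, 1264 to 2147 in YAP1-FAM118B and 70.5 to 1510 in YAP1-TFE3. This sum did not follow Ttr: no YAP1-MAMLD1-dR3R1 library fell below 1135 CPM, though Ttr was at 1.02 and 8.87 CPM in 2 of them. Naive replicate 3, labelled cortex, also had the most Pmch (147 CPM) and Hcrt (43.0 CPM), peptides of hypothalamic neurons. Naive replicate 2 and YAP1-FAM118B replicate 2 each held both Xist (25.6 and 162 CPM) and the Y-linked Ddx3y (49.3 and 29.9 CPM). Every YAP1-TFE3 library had Ddx3y (68.9 to 87.8 CPM) and at most 0.434 CPM of Xist, while the other groups were mixed.

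Sequence around the start of these genes is shown because RFX and forkhead factors are known to bind promoters of ciliary genes, and members with a match moved in different directions. RefSeq promoters (build GRCm38.p6, 250 bases before to 50 after the start) were found for 48 of the 53 genes. Both strands were searched for 3 motifs. The X-box was written as GTTNCC and GGNAAC separated by up to 3 bases; it was found in 1 of 48 promoters (2.08%) against 0.936% of all 27025. One arm of the X-box, GTTGCCA, was found in 10 (20.8%) against 5.02%, and in Pifo it lies within the X-box. A forkhead core, TGTTTAC, was found in 5 (10.4%) against 4.05%. Each line below runs 5′ to 3′ on the gene's strand, and the match is in capitals. The first 4 belong to genes called lower in YAP1-TFE3 tumours, the next 3 to genes called higher there, and the last 4 to genes not called in any tumour against naive or too low to test.
Tekt1 X-box arm, chr11:72361881-72361907, minus strand: cgtccgtccgGTTGCCAtagagaccgc
Cfap74 X-box arm, chr4:155409193-155409219, plus strand: gcagccttccGTTGCCAtggagctgcg
Dnah10 X-box arm, chr5:124725085-124725111, plus strand: tagggtcgccGTTGCCAcggacgcccg
Cfap43 forkhead core, chr19:47837400-47837426, minus strand: ggatacaggtGTAAACAgtggcatctt
Dnah7b X-box arm, chr1:46066680-46066706, plus strand: caggagcacaGTTGCCAcccaccctta
Cfap20 X-box arm, chr8:95434948-95434974, minus strand: aatagtccctTGGCAACcaagttccgc
Dnah17 forkhead core, chr11:118129404-118129430, minus strand: aggggtacccTGTTTACctgatgaccc
Pifo X-box, chr3:106001494-106001527, minus strand: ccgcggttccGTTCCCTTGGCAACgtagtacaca
Ak7 forkhead core, chr12:105705841-105705867, plus strand: gtagagaaatTGTTTACccaagcagag
Ccno X-box arm, chr13:112987573-112987599, plus strand: ccgggctgcgGTTGCCAcggtgacgac
Mcidas X-box arm, chr13:112993663-112993689, plus strand: gggaagccagGTTGCCAggttggttaa
The arm of Dnah10 begins 10 bases after the start, and that of Cfap74 after or before it, depending on which of its 2 listed starts is used. The other matches begin before the start that their promoter entry lists. That start is not always the outermost one of the gene. Besides that of Dnah10, the lines of Tekt1, Cfap74, Cfap43, Dnah7b, Dnah17, Pifo, Ak7 and Mcidas lie inside the gene's RefSeq coordinates. The lines are a selection. The X-box arm was also found at Cfap44 and at Cfap58, called lower in YAP1-TFE3, and the forkhead core also at Cfap20 and Tekt3. The X-box arm is thus found at genes of both directions, and a match is a run of letters, not a measured binding site. Not all calls were firm: Cfap20 lost its call under 12 of 16 alternative fits, Dnah17 under 14, Dnah10 under 4, Cfap43 under 3, and Cfap58 under 6 of 13.

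Foxj1 (chr11:116330704-116335499) had 5.5, 6.79 and 18.7 CPM in the naive libraries. In YAP1-MAMLD1-dR3R1 it had 32.7, 24.0 and 49.5 CPM, in YAP1-FAM118B 4.64, 9.70 and 5.49, and in YAP1-TFE3 231, 178 and 99.1. Every YAP1-TFE3 library lay above every other library, every YAP1-MAMLD1-dR3R1 library lay above all naive and YAP1-FAM118B libraries, and naive and YAP1-FAM118B overlapped. The log2 fold change against naive was 4.04 (SE 0.57, edgeR adjusted p = 0.000149) in YAP1-TFE3 and -0.64 (SE 0.52, edgeR adjusted p = 0.364) in YAP1-FAM118B. In YAP1-MAMLD1-dR3R1 it was 1.78 (SE 0.52, edgeR adjusted p = 0.0133), and the call ended without naive replicate 1 (1.42, edgeR adjusted p = 0.0533), naive replicate 2 (1.55, edgeR adjusted p = 0.0519) or YAP1-MAMLD1-dR3R1 replicate 3 (1.44, edgeR adjusted p = 0.0517). Between fusions, Foxj1 was higher in YAP1-TFE3 than in YAP1-FAM118B by 4.68 (SE 0.59, edgeR adjusted p = 0.000198) and than in YAP1-MAMLD1-dR3R1 by 2.26 (SE 0.53, edgeR adjusted p = 0.00731). Per kilobase of exon, Foxj1 had the highest mean of all 53 genes in YAP1-TFE3 tumours, at 64.7 ± 25.4 CPM per kb (SD, n = 3), and the seventh highest in naive cortex, at 3.94 ± 2.78. Tumours were sampled whole, so more cells with the transcript and more transcript per cell cannot be told apart, here and for every gene below.

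Rfx2 (chr17:56775897-56831008), an RFX factor active in ciliated cells and in testis, followed the same order. It had 1.97, 3.52 and 3.56 CPM in naive, 9.01, 7.59 and 6.16 in YAP1-MAMLD1-dR3R1, 3.78, 3.61 and 3.83 in YAP1-FAM118B, and 12.8, 13.3 and 9.33 in YAP1-TFE3. All libraries of YAP1-TFE3 lay above all others, and those of YAP1-MAMLD1-dR3R1 came next. The log2 fold change was 1.33 (SE 0.27, edgeR adjusted p = 0.00185) in YAP1-MAMLD1-dR3R1 and 1.96 (SE 0.27, edgeR adjusted p = 0.000137) in YAP1-TFE3, against 0.31 (SE 0.27, edgeR adjusted p = 0.399) in YAP1-FAM118B.

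Rfx3 (chr19:27761721-28014669), which serves motile and primary cilia, went the other way. It had 56.0, 82.7 and 71.3 CPM in naive, 20.3, 11.2 and 8.29 in YAP1-MAMLD1-dR3R1, 26.6, 50.4 and 22.8 in YAP1-FAM118B, and 11.3, 19.2 and 7.20 in YAP1-TFE3. No tumour library reached the lowest naive one. The log2 fold change was -2.40 (SE 0.46, edgeR adjusted p = 0.00131) in YAP1-MAMLD1-dR3R1 and -2.48 (SE 0.46, edgeR adjusted p = 0.000846) in YAP1-TFE3. In YAP1-FAM118B it was -1.07 (SE 0.44, edgeR adjusted p = 0.0916).

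Ccno (chr13:112987802-112990778) and Mcidas (chr13:112993581-113000394), neighbours that act in centriole amplification, were scarce throughout. Ccno did not exceed 1.86 CPM in any library and was not called in any comparison. Its lowest value was 0.0887 CPM in YAP1-MAMLD1-dR3R1 replicate 3, the library with the most Foxj1 of its group. Mcidas had 14 counts over the 3 naive libraries, 1 over those of YAP1-MAMLD1-dR3R1, 14 over those of YAP1-FAM118B and 2 over those of YAP1-TFE3. The ratio to naive, adjusted for library size, was 0.156 in YAP1-TFE3 (95% interval 0.0173 to 0.681, counting error only) and 0.0735 in YAP1-MAMLD1-dR3R1 (0.00174 to 0.483). In YAP1-FAM118B most Mcidas reads were in replicate 1, at 0.493 CPM. The YAP1-TFE3 libraries, where Foxj1 and Rfx2 were high, held at most 0.0482 CPM of Mcidas. That is below the 0.133 CPM or more that 3 counts make in these libraries, and Mcidas had too few reads to test.

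**Figure D1:**
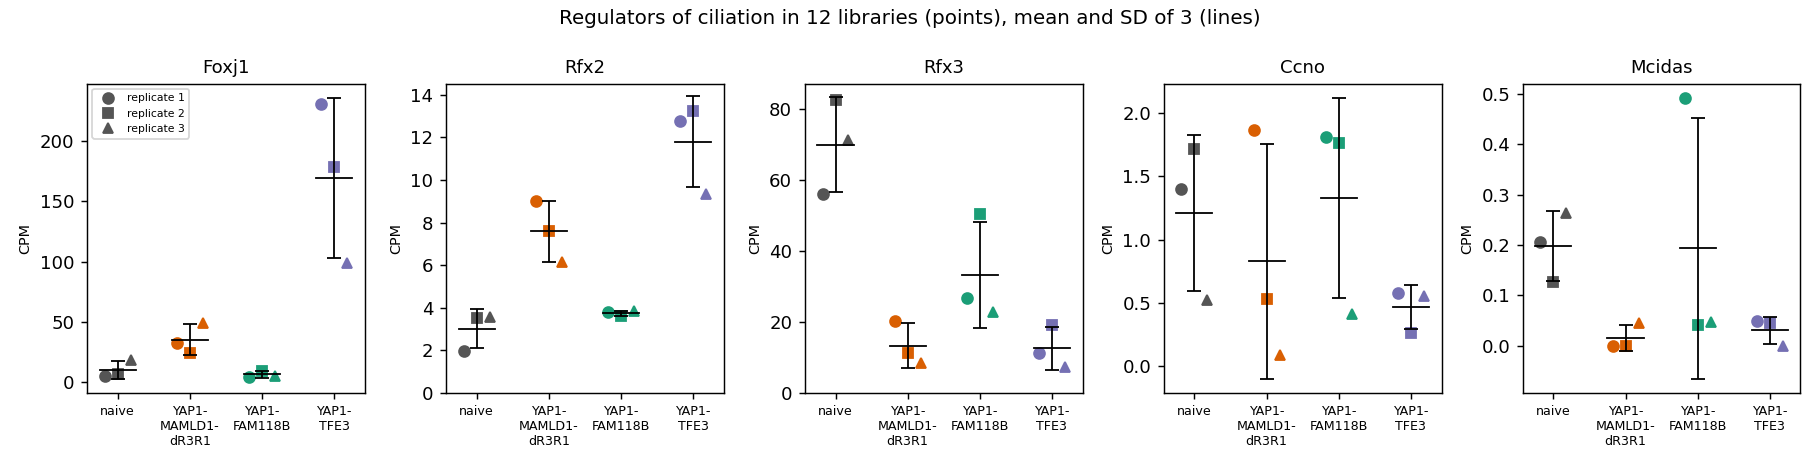
CPM of Foxj1, Rfx2, Rfx3, Ccno and Mcidas in each library (points, shaped by replicate) for naive cortex and the 3 fusions, with mean and SD of 3 (lines); the vertical scale differs between panels. Foxj1 reaches 231 CPM in YAP1-TFE3 and Rfx3 83 CPM in naive cortex, while Ccno and Mcidas stay below 2 CPM.

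Of the 48 tested cilium genes, 8 were called higher and 21 lower in YAP1-TFE3 against naive, where 40.6% of all genes tested were called higher and 30.0% lower. The members' share of higher calls was 16.7%, and that of lower calls 43.8%. In YAP1-MAMLD1-dR3R1 3 were called higher and 7 lower, against 34.4% and 28.8% of all genes. In YAP1-FAM118B 6 were called lower by edgeR, against 8.45% of all genes, and 0 higher, against 21.3%. There 1 gene was higher and 19 lower at an unadjusted p below 0.05, a threshold at which no share of all genes was taken. DESeq2 called 0 members higher and 18 lower, beside 3798 higher and 2830 lower of the 17452 genes it tested. The median log2 fold change of the tested members was -1.22 in YAP1-TFE3 and -1.14 in YAP1-FAM118B, while in YAP1-MAMLD1-dR3R1 it was -0.55, beside medians of 0.23, -0.05 and 0.06 over all genes. Cfap36, Cfap46 and Dnah5 were called lower in all 3 fusions, no gene was called higher in all 3, and 18 were called in none.

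A call depended on single libraries for many members. Without naive replicate 3, the library rich in Ttr, Pmch and Hcrt, the genes called lower in YAP1-TFE3 numbered 13 in place of 21, and without it and YAP1-MAMLD1-dR3R1 replicate 1 together 12. Without YAP1-MAMLD1-dR3R1 replicate 1, rich in Ttr, the genes called lower in that fusion numbered 13 in place of 7. In YAP1-FAM118B the lower calls numbered 1 without replicate 1 or without replicate 3. Lower calls over all genes also fell there, from 1382 of 16364 to 405 of 16664 without replicate 1 and 356 of 16662 without replicate 3. They changed less in the fits named before. They numbered 4579 of 16654 in YAP1-TFE3 without naive replicate 3 and 4620 of 16585 without both libraries, beside 4906 of 16364. In YAP1-MAMLD1-dR3R1 they numbered 4620 of 16668 without its replicate 1, beside 4712 of 16364. Under every alternative, 12 genes remained lower in YAP1-TFE3 (Ccdc40, Cfap36, Cfap46, Cfap69, Cfap70, Cfap74, Cfap97, Dnah1, Dnah5, Dnah9, Rfx3 and Tekt1) and 5 higher (Dnah11, Dnah7b, Foxj1, Rfx2 and Rsph3a). In YAP1-MAMLD1-dR3R1 6 remained lower (Cfap36, Cfap97, Dnah1, Dnah5, Rfx3 and Tekt5) and 2 higher (Dnah11 and Rfx2), and in YAP1-FAM118B Cfap36 alone remained.

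**Figure D2:**
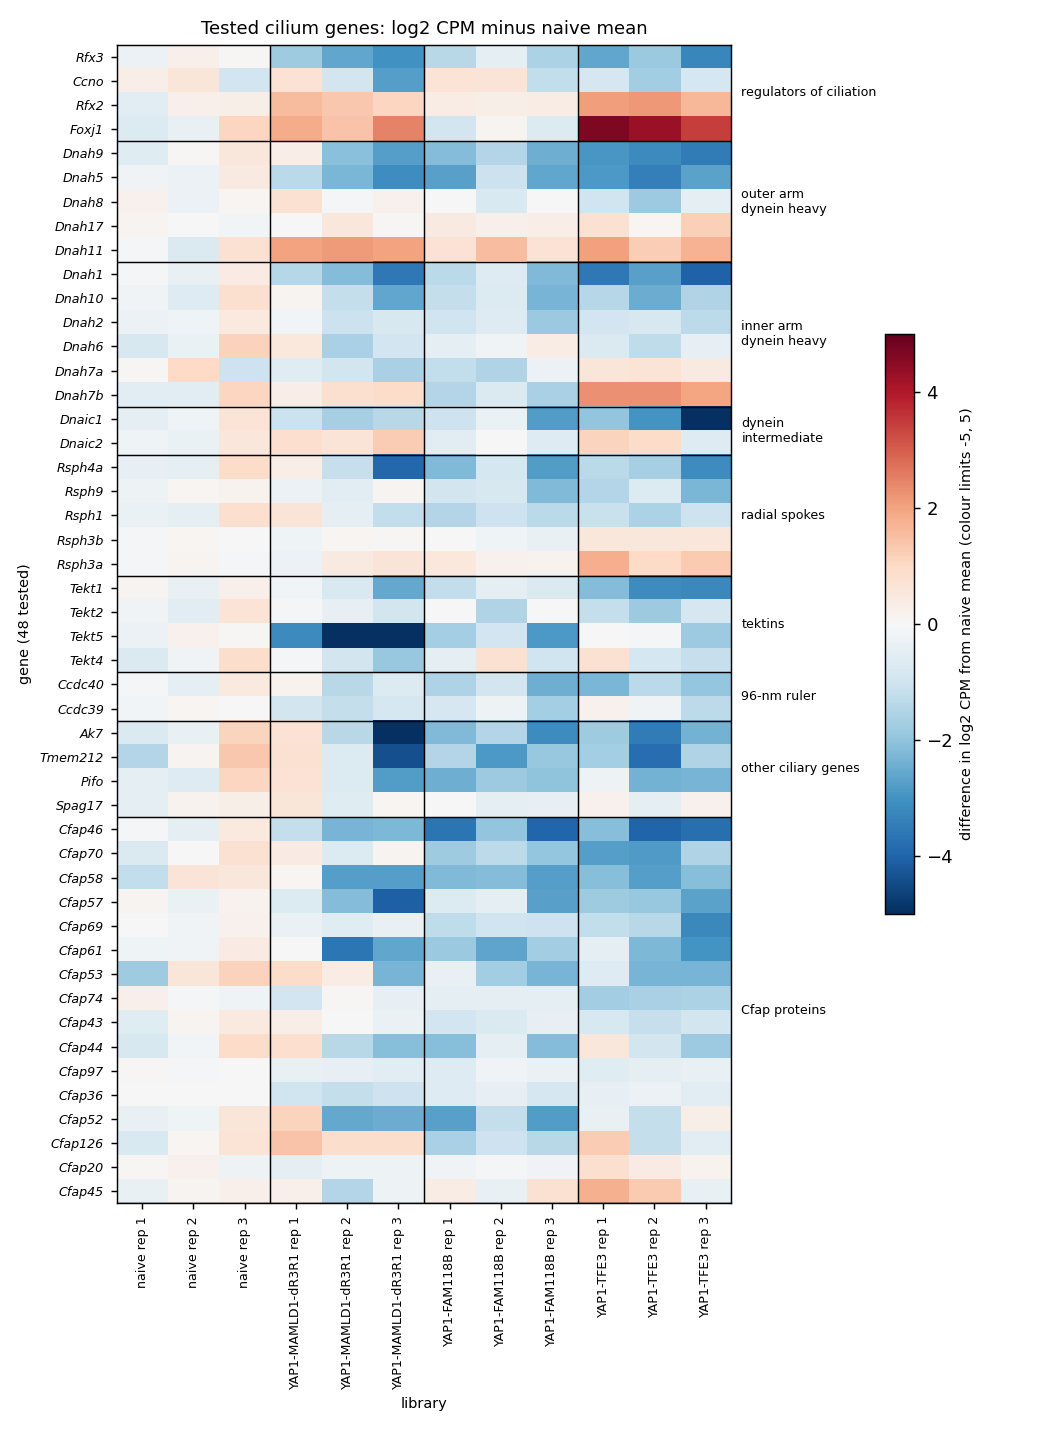
Difference in log2 CPM from the naive mean (colour, limits -5 and 5) for the 48 tested genes (rows, in blocks by role) in 12 libraries (columns, in blocks by group). Red cells in YAP1-TFE3 are few and include Foxj1, Rfx2, Dnah11 and Dnah7b, naive replicate 3 is redder than the other naive libraries, and YAP1-MAMLD1-dR3R1 replicate 1 differs from replicates 2 and 3 in many rows.

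Among outer arm dynein heavy chains, Dnah5 and Dnah9, the chains of respiratory and ependymal cilia, were lower and Dnah11 higher in YAP1-TFE3. Dnah5 (chr15:28154854-28472045) had 7.10, 6.45 and 10.9 CPM in naive, 3.03, 1.55 and 0.843 in YAP1-MAMLD1-dR3R1, 1.15, 3.74 and 1.25 in YAP1-FAM118B, and 1.01, 0.665 and 1.16 in YAP1-TFE3. All 9 tumour libraries lay below all naive ones. The log2 fold changes were -2.17 (SE 0.58, edgeR adjusted p = 0.00828), -1.99 (SE 0.57, edgeR adjusted p = 0.0262) and -3.10 (SE 0.61, edgeR adjusted p = 0.00115). In YAP1-FAM118B the call of Dnah5 ended without any of naive replicates 1 and 3 (-2.05 and -1.73, edgeR adjusted p = 0.0524 and 0.0839) and YAP1-FAM118B replicates 1 and 3 (-1.70 and -1.74, edgeR adjusted p = 0.0995 and 0.102).

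Dnah9 (chr11:65831324-66168581) had 5.75, 9.09 and 13.1 CPM in naive and 1.11, 0.887 and 0.697 in YAP1-TFE3, a log2 fold change of -3.37 (SE 0.78, edgeR adjusted p = 0.00318). In YAP1-MAMLD1-dR3R1 it had 11.1, 2.03 and 1.24 CPM, so that replicate 1, with 2156 CPM of Ttr, lay within the naive range and the others far below it. What choroid plexus RNA adds to that value was not tested. Dnah8, a chain of sperm flagella, was called lower in YAP1-TFE3 (log2 fold change -1.06, SE 0.42, edgeR adjusted p = 0.0409), and lost the call without naive replicate 1 (-1.17, edgeR adjusted p = 0.0537), naive replicate 3 (-1.03, edgeR adjusted p = 0.0854) or YAP1-TFE3 replicate 2 (-1.0, edgeR adjusted p = 0.0599).

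Dnah11 (chr12:117877982-118199043), an outer arm chain needed for left-right patterning, rose by 1.96 on the log2 scale in YAP1-MAMLD1-dR3R1 (SE 0.42, edgeR adjusted p = 0.00247) and 1.63 in YAP1-TFE3 (SE 0.42, edgeR adjusted p = 0.00536). It had 1.56, 0.963 and 2.86 CPM in naive, 6.80, 7.44 and 6.79 in YAP1-MAMLD1-dR3R1, 2.75, 5.0 and 2.77 in YAP1-FAM118B, and 7.04, 3.99 and 5.67 in YAP1-TFE3. Exons of Dnah11 overlap those of Cdca7l on the opposite strand, and Cdca7l itself rose by 4.32 (edgeR adjusted p = 5.04e-05), 3.45 (edgeR adjusted p = 0.000424) and 4.53 (edgeR adjusted p = 2.42e-05) in the order YAP1-MAMLD1-dR3R1, then YAP1-FAM118B, then YAP1-TFE3. Whether strand was used in counting is not stated, and without it reads of the 2 genes cannot be told apart. Dnah17, another sperm chain, was called higher in YAP1-TFE3 (0.74, SE 0.27, edgeR adjusted p = 0.0325). Its exons overlap those of Pgs1, which was higher by 0.62 (edgeR adjusted p = 0.0199), and the call of Dnah17 ended without any 1 of 5 of the 6 libraries compared, the lowest value being 0.29 (edgeR adjusted p = 0.325) without YAP1-TFE3 replicate 3. The Dnah17 call also ended with RLE (0.58, edgeR adjusted p = 0.0657), upper-quartile (0.61, edgeR adjusted p = 0.0564) and library-size scaling (0.54, edgeR adjusted p = 0.0833), with either other filter and in the 2-group fit. The median log2 fold change of all genes was 0.23 in the main fit and 0.0021 without YAP1-TFE3 replicate 3.

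Of the inner arm heavy chains, Dnah1 fell and Dnah7b rose in YAP1-TFE3. Dnah1 (chr14:31260375-31325891) had 15.1, 12.2 and 21.1 CPM in naive, 5.79, 3.43 and 1.24 in YAP1-MAMLD1-dR3R1, 6.16, 10.1 and 3.37 in YAP1-FAM118B, and 1.25, 2.31 and 0.882 in YAP1-TFE3. No tumour library overlapped the naive range. The log2 fold change was -2.21 (SE 0.59, edgeR adjusted p = 0.00856) in YAP1-MAMLD1-dR3R1 and -3.44 (SE 0.63, edgeR adjusted p = 0.000768) in YAP1-TFE3. In YAP1-FAM118B it was -1.30 (SE 0.57, edgeR adjusted p = 0.114).

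Dnah7b (chr1:46066071-46373551) had 1.93, 1.93 and 6.16 CPM in naive, 3.61, 5.03 and 5.45 in YAP1-MAMLD1-dR3R1, 0.986, 1.68 and 0.877 in YAP1-FAM118B, and 14.2, 14.2 and 11.6 in YAP1-TFE3. The YAP1-TFE3 libraries lay above and the YAP1-FAM118B libraries below all others. Against naive the log2 fold change was 2.0 in YAP1-TFE3 (SE 0.46, edgeR adjusted p = 0.00322) and -1.49 in YAP1-FAM118B (SE 0.47, edgeR adjusted p = 0.0376). The YAP1-FAM118B call ended without naive replicate 3 (-0.70, edgeR adjusted p = 0.154), YAP1-FAM118B replicate 1 (-1.38, edgeR adjusted p = 0.124) or YAP1-FAM118B replicate 3 (-1.32, edgeR adjusted p = 0.136), and in the 2-group fit (-1.48, edgeR adjusted p = 0.0745). Dnah7b has a near-identical copy, Dnah7a, and how reads were divided between them is not stated. Dnah7a was at 1.54, 1.64 and 1.39 CPM in YAP1-TFE3 and 1.03, 2.05 and 0.440 in naive.

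Dnah2 (-1.08, SE 0.40, edgeR adjusted p = 0.0346) and Dnah10 (-1.95, SE 0.75, edgeR adjusted p = 0.0391), further inner arm chains, were called lower in YAP1-TFE3. Both calls rested on naive replicate 3, without which Dnah2 was at -0.78 (edgeR adjusted p = 0.140) and Dnah10 at -1.43 (edgeR adjusted p = 0.144), and both also ended without YAP1-TFE3 replicate 3 (-1.09 and -2.26, edgeR adjusted p = 0.0621 and 0.0549). Dnah10 lost its call without YAP1-TFE3 replicate 2 too (-1.90, edgeR adjusted p = 0.0800). Dnaic1, an intermediate chain of the outer arm, had 2.18, 2.64 and 4.97 CPM in naive and 0.723, 0.310 and 0 in YAP1-TFE3. It was called lower there (-3.23, SE 1.0, edgeR adjusted p = 0.0145), but not without the 2 libraries richest in choroid plexus RNA (-2.79, edgeR adjusted p = 0.0559). Its partner Dnaic2 was not called in any fusion against naive and had 7.33, 6.43 and 2.09 CPM in YAP1-TFE3 beside 2.83, 2.64 and 4.97 in naive.

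Of 5 tested radial spoke genes, the spoke head genes Rsph1 and Rsph9 were called lower in YAP1-TFE3 and the stalk genes Rsph3a and Rsph3b higher. The head gene Rsph4a was not called (-2.07, SE 0.98, edgeR adjusted p = 0.0807), and no test set head against stalk. Rsph9 had 7.39, 9.51 and 10.1 CPM in naive and 3.18, 5.59 and 1.76 in YAP1-TFE3 (-1.35, SE 0.46, edgeR adjusted p = 0.0233). Rsph1 had 3.65, 3.27 and 8.45 CPM in naive and 2.12, 1.51 and 2.23 in YAP1-TFE3 (-1.39, SE 0.52, edgeR adjusted p = 0.0341). The groups of either gene did not overlap, but without naive replicate 3 Rsph1 stood at -0.83 (edgeR adjusted p = 0.175) and Rsph9 at -1.27 (edgeR adjusted p = 0.0601). Rsph1 also lost its call without YAP1-TFE3 replicate 2 (-1.47, edgeR adjusted p = 0.0607), and Rsph9 without naive replicate 2 (-1.31, edgeR adjusted p = 0.0552) or YAP1-TFE3 replicate 1 (-1.42, edgeR adjusted p = 0.0519).

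Rsph3a had 2.26, 2.68 and 2.33 CPM in naive and 8.73, 4.92 and 6.08 in YAP1-TFE3, a log2 fold change of 1.44 (SE 0.31, edgeR adjusted p = 0.00223). Its copy Rsph3b changed by 0.56 (SE 0.19, edgeR adjusted p = 0.0213), a call that ended without any 1 of 5 of the 6 libraries, with a lowest value of 0.32 (edgeR adjusted p = 0.233) without naive replicate 1. The Rsph3b call also ended with RLE (0.41, edgeR adjusted p = 0.0690), upper-quartile (0.44, edgeR adjusted p = 0.0563) and library-size scaling (0.37, edgeR adjusted p = 0.105), with either other filter and in the 2-group fit. Over all genes the median log2 fold change was 0.23 in the main fit and 0.03 without naive replicate 1. The pair is nearly identical in sequence, so the division of reads between them is uncertain.

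Tekt5, a tektin known from sperm tails, fell in YAP1-MAMLD1-dR3R1 further than any other member in that comparison. It had 9.98, 14.2 and 12.7 CPM in naive, 1.24, 0.290 and 0.222 in YAP1-MAMLD1-dR3R1, 3.70, 6.26 and 1.57 in YAP1-FAM118B, and 12.3, 11.6 and 3.34 in YAP1-TFE3. The YAP1-MAMLD1-dR3R1 libraries lay below all others, and 2 of the 3 YAP1-TFE3 libraries lay within the naive range. The log2 fold change was -4.36 (SE 0.79, edgeR adjusted p = 0.000989) in YAP1-MAMLD1-dR3R1 and -0.43 (SE 0.68, edgeR adjusted p = 0.584) in YAP1-TFE3, and the fusions differed by 3.93 (SE 0.78, edgeR adjusted p = 0.00333).

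Tekt1, the tektin of ciliated epithelia as well as sperm, had 4.23, 2.89 and 4.53 CPM in naive, 3.42, 2.22 and 0.577 in YAP1-MAMLD1-dR3R1, 1.56, 2.73 and 2.31 in YAP1-FAM118B, and 0.772, 0.355 and 0.325 in YAP1-TFE3. Its log2 fold change of -2.99 in YAP1-TFE3 (SE 0.63, edgeR adjusted p = 0.00178) was called. The X-box arm, a fixed run of letters in the search above, was matched both at Tekt1, which fell in YAP1-TFE3, and at Dnah7b, which rose there. Tekt2 was called lower in YAP1-TFE3 (-1.51, SE 0.60, edgeR adjusted p = 0.0432), a call that ended without naive replicate 3 (-1.03, edgeR adjusted p = 0.177), YAP1-TFE3 replicate 1 (-1.73, edgeR adjusted p = 0.0645) or YAP1-TFE3 replicate 2 (-1.48, edgeR adjusted p = 0.0881).

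Ccdc40 and Ccdc39 form the molecular ruler that spaces dyneins and spokes along a doublet. Ccdc40 fell in YAP1-TFE3 (-1.92, SE 0.55, edgeR adjusted p = 0.0096), from 3.49, 2.64 and 5.06 CPM in naive to 0.675, 1.37 and 0.882. In YAP1-FAM118B its call (-1.61, SE 0.54, edgeR adjusted p = 0.0465) ended without any 1 of 5 of the 6 libraries, with edgeR adjusted p up to 0.156 (-1.29, without YAP1-FAM118B replicate 3). Ccdc39 was not called against naive in any fusion and had 15.9, 12.1 and 5.48 CPM in YAP1-TFE3 beside 12.7, 14.7 and 14.1 in naive. Its exons overlap those of Ttc14 on the opposite strand over 1256 bases. If strand was not used in counting, reads of Ccdc39 and Ttc14 there cannot be told apart.

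Ak7, Tmem212, Pifo and Spag17 were chosen as further markers of motile ciliation, and none was called in any comparison. Ak7, an adenylate kinase of cilia, had 2.34, 2.97 and 8.45 CPM in naive and 1.06, 0.266 and 0.697 in YAP1-TFE3 (-2.76, SE 1.31, edgeR adjusted p = 0.0811). In YAP1-MAMLD1-dR3R1 it had 6.49, 1.45 and 0 CPM. Tmem212, an ependymal transcript, had 3.07, 1.06 and 0 CPM in the same libraries, and Ccdc153 and Fam216b, ependymal markers outside the rule, also had 0 counts in replicate 3. That library had the most Foxj1 of its group, at 49.5 CPM, and 8 of the 53 genes at 0, more than any other library. Spag17, of the central pair, varied only from 1.5 to 3.61 CPM over all 12 libraries. Its exons overlap those of Wdr3 and Spag17os on the opposite strand, over 1336 bases together. Whether reads of these genes add to its level depends on the strand setting, which is not stated.

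**Figure D3:**
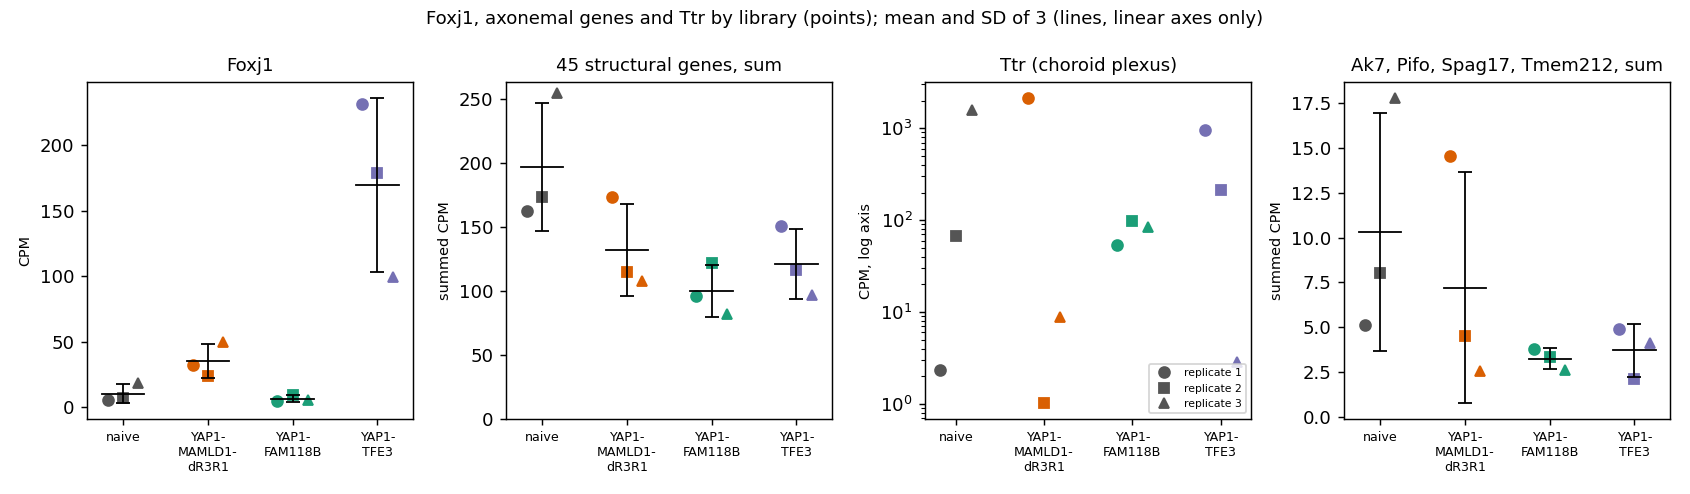
Foxj1 (CPM), the summed CPM of 45 structural genes (the members without the 5 regulators and without the abundant Cfap20, Cfap36 and Cfap97), Ttr (CPM, log axis) and the summed CPM of Ak7, Pifo, Spag17 and Tmem212 in each library, with mean and SD of 3 on the linear axes. Structural sums in YAP1-TFE3 (151, 116 and 96.8 CPM) lie below the naive ones (163, 173 and 254 CPM) while Foxj1 lies far above. The sums are also low in YAP1-FAM118B (81.8 to 122 CPM), where Foxj1 overlaps naive, and run from 107 to 173 CPM in YAP1-MAMLD1-dR3R1.

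The Cfap genes encode assorted cilia and flagella associated proteins, and 16 of 17 were tested. In YAP1-TFE3 8 were called lower and 1 higher (50 and 6.25%, beside 30.0 and 40.6% of all genes). Cfap36, a partner of the small GTPase ARL3 with a place in primary cilia too, was the most abundant member in naive cortex, at 107, 107 and 107 CPM. It had 53.2, 46.6 and 52.2 in YAP1-MAMLD1-dR3R1, 67.7, 81.2 and 59.9 in YAP1-FAM118B, and 80.9, 86.5 and 71.6 in YAP1-TFE3, with no tumour library in the naive range. The log2 fold changes were -1.08 (SE 0.13, edgeR adjusted p = 7.65e-05), -0.62 (SE 0.13, edgeR adjusted p = 0.00506) and -0.43 (SE 0.13, edgeR adjusted p = 0.0119).

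Cfap74, of the central pair, had 17.6, 14.2 and 12.7 CPM in naive, 7.46, 15.2 and 10.9 in YAP1-MAMLD1-dR3R1, 10.4, 10.5 and 10.3 in YAP1-FAM118B, and 4.34, 4.74 and 4.88 in YAP1-TFE3. YAP1-TFE3 stood below every other library. Its log2 fold change was -1.67 against naive (SE 0.25, edgeR adjusted p = 0.000205), -1.26 against YAP1-MAMLD1-dR3R1 (SE 0.25, edgeR adjusted p = 0.00291) and -1.16 against YAP1-FAM118B (SE 0.25, edgeR adjusted p = 0.00329).

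Cfap46, also of the central pair, had 5.38, 4.11 and 7.96 CPM in naive and at most 2.41 CPM in any tumour library. It was called lower in YAP1-TFE3 (-3.27, SE 0.77, edgeR adjusted p = 0.00342), YAP1-FAM118B (-3.12, SE 0.76, edgeR adjusted p = 0.0124) and YAP1-MAMLD1-dR3R1 (-1.92, SE 0.72, edgeR adjusted p = 0.0381). The last call ended without any of naive replicates 1 to 3 or YAP1-MAMLD1-dR3R1 replicates 2 and 3, with values from -2.12 to -1.63 and edgeR adjusted p up to 0.111, and the YAP1-FAM118B call ended without its replicate 1 (-2.83, edgeR adjusted p = 0.0569) or 3 (-2.75, edgeR adjusted p = 0.0521). Cfap70, which sits on the outer arm, fell in YAP1-TFE3 (-2.66, SE 0.63, edgeR adjusted p = 0.00358). Cfap58, a flagellar protein, had 42 counts over the naive libraries and 2 over those of YAP1-TFE3, a ratio of 0.0521 (95% interval 0.00611 to 0.200, counting error only).

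Cfap20, an inner junction protein of doublets in all cilia, was the 1 Cfap gene called higher in YAP1-TFE3, with 63.9, 47.8 and 41.4 CPM beside 37.7, 42.6 and 30.2 in naive. The groups overlapped. The log2 fold change of 0.47 (SE 0.18, edgeR adjusted p = 0.0352) lost its call under RLE, upper-quartile and library-size scaling, and without YAP1-TFE3 replicate 1 it was 0.12 (edgeR adjusted p = 0.561). The call also ended without naive replicate 1 (0.30, edgeR adjusted p = 0.238), naive replicate 3 (0.35, edgeR adjusted p = 0.126) or YAP1-TFE3 replicate 2 (0.29, edgeR adjusted p = 0.236). Each fit set its scaling anew, and the median log2 fold change of all genes moved from 0.23 in some of them. It was 0.03, 0.02 and 0.0095 without naive replicate 1, YAP1-TFE3 replicate 1 and YAP1-TFE3 replicate 2, and 0.24 without naive replicate 3. The part of scaling in these lost calls was not tested.

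**Figure D4:**
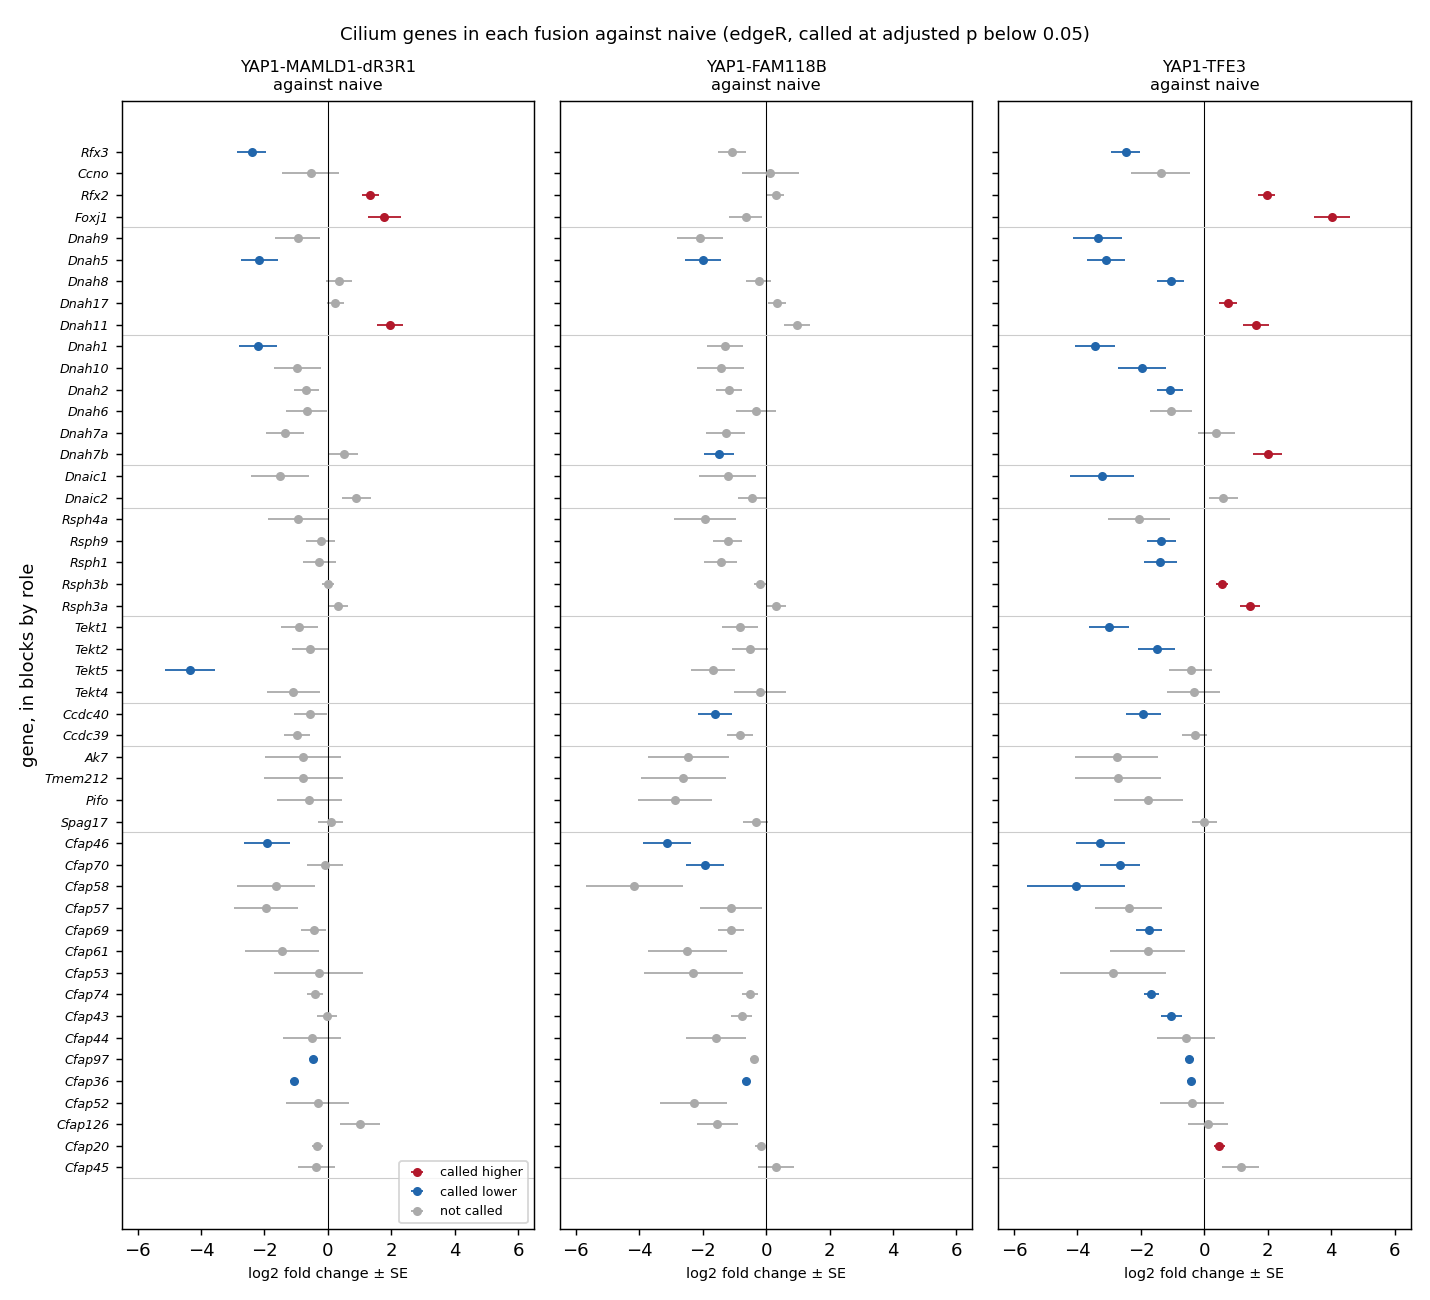
Log2 fold change and SE of each tested gene (rows, in blocks by role) in the 3 fusions against naive, coloured by the call. In YAP1-TFE3 the 21 lower calls lie in every block but that of Ak7, Tmem212, Pifo and Spag17, and Foxj1 is the highest point at 4.04; the fitted values of Cfap58 rest on 2 counts in each of YAP1-FAM118B and YAP1-TFE3 and carry no size.

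Compared directly, YAP1-TFE3 had 8 members higher and 7 lower than YAP1-MAMLD1-dR3R1, where 22.6% and 16.9% of all genes were called. Foxj1, Tekt5, Cfap36, Cfap70 and Cfap74 kept these calls under every alternative. Cfap36 was higher in YAP1-TFE3 by 0.65 (SE 0.13, edgeR adjusted p = 0.00295) and Cfap70 lower (-2.56, SE 0.63, edgeR adjusted p = 0.00969). Without YAP1-MAMLD1-dR3R1 replicate 1 the lower calls numbered 2, and Dnah9 moved from -2.42 (SE 0.76, edgeR adjusted p = 0.0289) to -0.86 (edgeR adjusted p = 0.172). Without YAP1-TFE3 replicate 1 the higher calls numbered 3. Over all genes the higher calls fell from 3695 of 16364 to 2461 of 16658 in that fit. Without YAP1-MAMLD1-dR3R1 replicate 1 the lower calls over all genes numbered 2460 of 16668, beside 2761 of 16364.

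Against YAP1-FAM118B, YAP1-TFE3 had 7 members higher and 4 lower, where 28.0% and 23.7% of all genes were called. Dnah7b was higher by 3.49 (SE 0.50, edgeR adjusted p = 0.000395) and Rfx2 by 1.66 (SE 0.27, edgeR adjusted p = 0.000843). Tekt1 (-2.17, SE 0.62, edgeR adjusted p = 0.0143) and Dnah1 (-2.14, SE 0.60, edgeR adjusted p = 0.0139) were lower. Without YAP1-FAM118B replicate 2, Dnah1 was at -1.68 (edgeR adjusted p = 0.0527) and the lower calls numbered 2, and without YAP1-TFE3 replicate 1 the higher calls numbered 3. Over all genes the lower calls numbered 3306 of 16680 in the first of these fits, beside 3878 of 16364. The higher calls over all genes numbered 2792 of 16658 in the second, beside 4582 of 16364.

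Between YAP1-FAM118B and YAP1-MAMLD1-dR3R1, 2 members were higher and 5 lower in YAP1-FAM118B, where 12.7% and 13.5% of all genes were called. Foxj1 (-2.42, SE 0.54, edgeR adjusted p = 0.0137), Dnah7b (-1.99, SE 0.48, edgeR adjusted p = 0.0176) and Rfx2 (-1.02, SE 0.27, edgeR adjusted p = 0.0235) were among the lower ones. Cfap126, or Flattop, which positions basal bodies, was lower too (-2.54, SE 0.66, edgeR adjusted p = 0.0230). None of these 7 calls held without every single library: without YAP1-FAM118B replicate 1 no lower call was left, and Foxj1 stood at -2.22 (edgeR adjusted p = 0.0538). Without that library the lower calls over all genes fell from 2208 of 16364 to 765 of 16664.

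Across the 12 libraries the log2 CPM of most members did not follow Foxj1. Pearson's r with Foxj1 was positive for 16 of the other 47 tested members and negative for 31, with a median of -0.18. The highest were Dnah7b (0.95), Rfx2 (0.91) and Rsph3b (0.82), and the lowest Cfap74 (-0.82), Tekt1 (-0.75) and Dnah1 (-0.72). Over the 9 tumour libraries alone 25 were positive and 22 negative. The points share libraries and group differences, so these values describe the libraries and carry no test.

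Cilium genes outside the rule were read from lists. The counts below stand beside 40.6% of all genes higher and 30.0% lower in YAP1-TFE3. The shares of all genes were 34.4 and 28.8% in YAP1-MAMLD1-dR3R1, and 21.3 and 8.45% in YAP1-FAM118B. Of 13 tested genes of dynein assembly and docking, 3 were higher and 5 lower in YAP1-TFE3, 2 and 2 in YAP1-MAMLD1-dR3R1, and 1 was higher in YAP1-FAM118B. Dnaaf5, a dynein assembly factor, rose in all 3 fusions, by 2.24 in YAP1-TFE3 (SE 0.13, edgeR adjusted p = 1.06e-06), while Ccdc151, a docking factor of outer arms, fell there (-2.39, SE 0.47, edgeR adjusted p = 0.00117). Of 9 genes of the nexin-dynein regulatory complex, which links doublets, 1 was higher and 5 lower in YAP1-TFE3 and 2 and 4 in YAP1-MAMLD1-dR3R1. Tcte1 of that complex fell from 35.4, 36.5 and 25.5 CPM in naive to 0.289, 3.15 and 0.557 in YAP1-TFE3 (-4.59, SE 0.95, edgeR adjusted p = 0.00161). Of 8 central pair genes, 3 were lower in YAP1-TFE3, and 1 was higher and 1 lower in YAP1-MAMLD1-dR3R1. In YAP1-FAM118B edgeR called 0 genes of these last 2 lists, with 1 higher and 1 lower in the complex and 1 lower in the central pair at an unadjusted p below 0.05.

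Of 13 tested genes that control multiciliation upstream, 7 were higher in YAP1-TFE3 (53.8%, beside 40.6% of all genes), where 1 was lower. In YAP1-MAMLD1-dR3R1 7 were higher (53.8%, beside 34.4%), and in YAP1-FAM118B 4 (30.8%, beside 21.3%). Among the higher ones were genes of the centriole cycle that dividing cells also use: Plk4, the kinase of centriole duplication, rose by 4.01 in YAP1-TFE3 (SE 0.34, edgeR adjusted p = 6.65e-06), and Cep152, its scaffold, by 1.86 (SE 0.23, edgeR adjusted p = 5.84e-05). The lower one was Gmnc, the geminin relative that starts multiciliation (0.0965, 0.0443 and 0 CPM in YAP1-TFE3 beside 1.07, 1.38 and 0.968 in naive; edgeR adjusted p = 0.0144). The part that cell division plays in these values was not tested.

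Transport genes serve primary and motile cilia alike. Of 29 intraflagellar transport genes, 2 were higher and 13 lower in YAP1-MAMLD1-dR3R1, 1 and 5 in YAP1-FAM118B, and 6 and 12 in YAP1-TFE3. The motor subunits Kifap3 (-2.64, SE 0.24, edgeR adjusted p = 1.03e-05 in YAP1-TFE3) and Kif3a (-1.86, SE 0.18, edgeR adjusted p = 1.67e-05) led them. Both also carry cargo in axons. Lower calls made up 44.8, 17.2 and 41.4% of the 29 transport genes, beside 28.8, 8.45 and 30.0% of all genes. Higher calls made up 6.9, 3.45 and 20.7%, beside 34.4, 21.3 and 40.6%. Of 31 genes of the BBSome and primary cilium, 8 were higher and 13 lower, 3 and 4, and 6 and 8 in the same order. These are 25.8, 9.68 and 19.4% higher and 41.9, 12.9 and 25.8% lower, so that the lower share in YAP1-TFE3 was below that of all genes. Tulp3 and Smo, of ciliary Hedgehog signalling, rose by 3.19 (SE 0.21, edgeR adjusted p = 1.5e-06) and 2.59 (SE 0.29, edgeR adjusted p = 3.47e-05) in YAP1-TFE3.

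Ependymal markers outside the rule moved in both directions. Of 30 tested, 5 were higher and 1 lower in YAP1-MAMLD1-dR3R1, 1 and 5 in YAP1-FAM118B, and 6 and 4 in YAP1-TFE3. In that order higher calls made up 16.7, 3.33 and 20% of the list, beside 34.4, 21.3 and 40.6% of all genes. Lower calls made up 3.33, 16.7 and 13.3%, beside 28.8, 8.45 and 30.0%. Kif9, Mns1 and Tm4sf1 are named for the smallest adjusted p of the list, and all of them rose. Kif9, a kinesin of the central pair, had 75.6, 162 and 87.6 CPM in YAP1-TFE3 and at most 9.18 CPM in every other library (4.14, SE 0.31, edgeR adjusted p = 3.21e-06). Mns1, an axonemal filament protein, rose by 3.21 (SE 0.42, edgeR adjusted p = 9.03e-05), and Tm4sf1, a membrane protein that is not ciliary, rose in all 3 fusions, by 3.85 in YAP1-MAMLD1-dR3R1 (SE 0.42, edgeR adjusted p = 4.97e-05). Ccdc153 and Fam216b were not called. The median log2 fold change of the list was -0.31 in YAP1-MAMLD1-dR3R1 (20 of 30 negative), -1.33 in YAP1-FAM118B (25 negative) and -0.99 in YAP1-TFE3 (18 negative). Between YAP1-FAM118B and YAP1-MAMLD1-dR3R1 it was -1.04, with 29 of 30 negative and 7 called lower (23.3%, beside 13.5% of all genes).

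Markers of other cell types changed between the same groups. Of all genes tested, 34.4% were higher and 28.8% lower in YAP1-MAMLD1-dR3R1, 21.3 and 8.45% in YAP1-FAM118B, and 40.6 and 30.0% in YAP1-TFE3. Of 20 neuronal genes, 19 were lower in YAP1-TFE3, 16 were lower in YAP1-MAMLD1-dR3R1, and 1 was lower in YAP1-FAM118B. Their summed level was 14217 to 19711 CPM in naive, 8029 to 11845 in YAP1-FAM118B, 797 to 2921 in YAP1-MAMLD1-dR3R1 and 388 to 2177 in YAP1-TFE3. In the order YAP1-MAMLD1-dR3R1, then YAP1-FAM118B, then YAP1-TFE3, 6, 5 and 8 of 10 hypothalamic genes were lower, and of 12 astrocyte genes 1 was higher and 4 lower, 1 lower, and 3 higher and 8 lower. Of 8 tanycyte genes, which mark ependymal-lineage cells of the third ventricle, 2 were higher and 3 lower, 1 and 2, and 1 and 4. Of 18 choroid plexus genes, 4, 3 and 2 were called higher (22.2, 16.7 and 11.1%), below the shares of all genes. In each fusion 0 of the 18 were called lower, and 0 were lower at an unadjusted p below 0.05. Their median log2 fold changes were 0.29, -2.07 and -0.44, with 6, 14 and 11 negative. Among other sources of cilia, 7 of 16 germ-line genes were tested, with 1 higher and 1 lower in YAP1-MAMLD1-dR3R1 and 2 and 4 in YAP1-TFE3, and Tnp1 at 0 in every library. Of 12 airway genes 5 were tested, with 2 higher and 2 lower in YAP1-MAMLD1-dR3R1, 1 lower in YAP1-FAM118B and 2 lower in YAP1-TFE3, and Scgb1a1 at most 1.16 CPM. The part of neuronal, hypothalamic or choroid plexus RNA in the cilium gene values was not tested.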

How the data were processed

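Each deposited file lists, for 1 library, raw read counts by gene symbol, from HTSeq on mm10 per the submitters' processing notes (versions, aligner, annotation and strand setting: not given in the sources used here). Groups came from GEO's labels. Genes were kept by filterByExpr (minimum count 10) and scaled with TMM factors. edgeR 4.0.16 (with limma 3.58.1, R 4.3.3) fitted a quasi-likelihood model to all 12 libraries with group alone, and 6 contrasts were adjusted by Benjamini-Hochberg over 16364 genes at 0.05; the SE is the log2 fold change divided by the square root of F. The script was tested on simulated counts. Log2 CPM used a prior count of 2. Coordinates and promoters are RefSeq's (GRCm38.p6), exon lengths GENCODE's. Of 53 members, 20 have exons overlapping another annotated gene, 8 of them a counted protein-coding gene. Ratios of low totals have exact binomial intervals.

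Members and lists were chosen with earlier results of these data known. Named genes were the 5 regulators, up to 4 members per role by adjusted p against naive, members called against the majority of a contrast (up to 6), up to 8 called per fusion pair, the 3 most abundant per group, and up to 3 genes per other list. Cfap58, Dnah7a, Rsph4a, Cdca7l, Pgs1, Ttc14, Wdr3, Spag17os and the listed markers named beyond this rule were chosen after the values were seen. Alternatives were DESeq2 1.42.0, other scalings and filters, a replicate block, 2-group fits and left-out libraries.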

Additional observations from a re-analysis of the deposited data

How the results depend on the processing

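Of 78 called pairs of member and comparison, 35 were called under every alternative run; over 1244 alternatives 992 kept the call, 252 lost it and 0 reversed. Counts of members called moved by more than 1.5 times as follows. For YAP1-FAM118B against naive, lower: 10 with RLE factors, 18 with DESeq2, 19 in a fit of the 2 groups, 3 without both libraries richest in choroid plexus RNA (chosen after seeing the data), which also gave 1 higher. Genes called lower there over the whole table also rose, to 1986 of 16364 with RLE, 2830 of 17452 with DESeq2 and 2916 of 15590 in the 2-group fit. They fell to 738 of 16585 without the choroid-rich libraries. For YAP1-TFE3 against naive, higher: 5 with RLE, upper-quartile or library-size scaling, with no filter, with a filter of 1 CPM and in the 2-group fit; lower: 12 without the choroid-rich libraries. For YAP1-FAM118B against YAP1-MAMLD1-dR3R1, higher: 0 in the 2-group fit and 0 without both libraries holding Xist and Ddx3y; lower: 2 without those and 2 without the choroid-rich ones. For YAP1-TFE3 against YAP1-MAMLD1-dR3R1, lower: 2 in the 2-group fit, 4 and 2 without these pairs. For YAP1-TFE3 against YAP1-FAM118B: 4 higher with no filter, 1 lower without the Xist pair. The causes were not tested.

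With single libraries left out, counts higher and lower ran over 2 to 4 and 6 to 13 (YAP1-MAMLD1-dR3R1 against naive), 0 to 1 and 1 to 9 (YAP1-FAM118B), 5 to 7 and 13 to 20 (YAP1-TFE3), 0 to 3 and 0 to 3 (YAP1-FAM118B against YAP1-MAMLD1-dR3R1), 3 to 7 and 2 to 9 (YAP1-TFE3 against YAP1-MAMLD1-dR3R1), and 3 to 7 and 2 to 5 (YAP1-TFE3 against YAP1-FAM118B). Counts over all genes moved too: those lower in YAP1-FAM118B against naive ran from 356 of 16662 to 1850 of 16680.

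Replicate numbers are shared between groups only as numbers: same-numbered deviations correlated at -0.111 to 0.324. With the replicate block, counts were 3 and 7, 0 and 5, 7 and 20, 3 and 4, 6 and 5, and 6 and 4 in the same order. Scaling moved the median of all genes in YAP1-TFE3 against naive from 0.23 to 0.03 with library size alone. The split of all calls in YAP1-TFE3 against YAP1-MAMLD1-dR3R1 went from 57.2% higher to 42.0%, and against YAP1-FAM118B from 54.2% to 41.3%. Scaling factors were set anew in each left-out fit. In YAP1-TFE3 against naive the median of all genes was then 0.03 without naive replicate 1. It was 0.02, 0.0095 and 0.0021 without YAP1-TFE3 replicates 1, 2 and 3 in turn. Of the 5 untested members, Mcidas alone was given a ratio of counts.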
